A study of Mus musculus with 2 samples.

Results

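The GPIb-IX-V complex is the platelet receptor for von Willebrand factor, and its genes were followed here together with the gene of that ligand. The genes are Gp1ba, Gp1bb, Gp9, Gp5 and Vwf, and all probe sets whose only gene symbol is one of the 5 were taken. Of these 5 genes, 4 have such a probe set, among 18193 genes that the annotation names singly, and they have 5 such probe sets in all. Gp1ba has none under its symbol in the annotation used, so its transcript was not analysed here. Another probe set carries Gp1bb jointly with Septin5 and is given separately. RNA came from washed platelets of Smad4 −/− mice, whose floxed Smad4 gene is deleted in megakaryocytes and platelets by Cre under the PF4 promoter, and of Smad4 f/f mice, which carry the floxed gene and which the labels call wildtype controls. All mice were C57BL/6. The labels do not say whether the controls carry Cre, and no age is given. The study lists 6 mice for each group but has a single array for each, so no spread within a group can be had and no test was possible. Every difference lies between 2 arrays, whose number limits the precision.

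GPIb alpha carries the binding site for von Willebrand factor and is joined to GPIb beta by disulphide bonds, and GPIX is needed for the complex to reach the cell surface. GPV associates more loosely and is cut by thrombin. The ectodomains of all the subunits are built around leucine-rich repeats, and in humans loss of GP1BA, GP1BB or GP9 causes Bernard-Soulier syndrome, a bleeding disorder with giant platelets. Von Willebrand factor is a large multimeric protein made by megakaryocytes and endothelial cells, stored in platelet alpha-granules and endothelial Weibel-Palade bodies, and it tethers platelets to exposed collagen under high shear. Platelets have no nucleus, so their mRNA is made in the megakaryocyte.

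The promoters of Gp1bb, Gp9 and Gp5 are shown because the values of these 3 subunits are compared below and because their genes are known targets of GATA and ETS factors of the megakaryocyte. The sequences are from RefSeq, build GRCm38.p6, 250 bases before to 50 bases after the start that the promoter table uses, written 5′ to 3′ along the gene. For Gp9 that start lies inside the span of the gene in the RefSeq gene table, which begins further upstream, so positions in its window are relative to the promoter table's start. Capitals mark matches on either strand to the GATA motif (AGATAA, with T allowed in its first place and G in its last) and to CAGAC, a short motif bound by SMAD proteins. Of the 5 genes, 4 were found in the promoter table.
Gp1bb, chr16:18622354-18622653, minus strand: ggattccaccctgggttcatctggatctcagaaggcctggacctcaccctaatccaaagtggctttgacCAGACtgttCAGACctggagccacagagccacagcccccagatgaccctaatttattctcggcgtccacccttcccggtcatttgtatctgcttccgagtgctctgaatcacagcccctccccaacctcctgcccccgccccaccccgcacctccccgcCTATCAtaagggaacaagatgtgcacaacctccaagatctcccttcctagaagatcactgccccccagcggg
Gp9, chr6:87777820-87778119, plus strand: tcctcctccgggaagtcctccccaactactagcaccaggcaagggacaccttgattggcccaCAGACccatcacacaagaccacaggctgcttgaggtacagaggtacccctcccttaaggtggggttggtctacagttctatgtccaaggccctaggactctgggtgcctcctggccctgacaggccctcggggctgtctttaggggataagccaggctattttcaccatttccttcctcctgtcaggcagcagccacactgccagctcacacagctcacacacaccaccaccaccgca
Gp5, chr16:30310732-30311031, minus strand: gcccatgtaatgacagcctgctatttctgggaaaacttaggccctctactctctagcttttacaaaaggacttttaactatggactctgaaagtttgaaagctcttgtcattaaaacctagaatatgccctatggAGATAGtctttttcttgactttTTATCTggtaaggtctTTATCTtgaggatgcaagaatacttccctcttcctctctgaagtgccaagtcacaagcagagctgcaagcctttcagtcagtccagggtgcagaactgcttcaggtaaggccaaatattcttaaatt
The Gp1bb window holds 1 GATA match, which begins 22 bases before the start, and 2 CAGAC matches, at 181 and 172 bases before it. Gp5 has 3 GATA matches, at 115, 93 and 77 bases before the start, and 0 CAGAC matches. Gp9 has 1 CAGAC match, at 188 bases before the start used, and 0 GATA matches in these spellings. The Gp1ba window, not printed, has 3 GATA and 0 CAGAC matches. An ETS motif (AGGAAG or CGGAAG) has 2 matches in the Gp1bb window and 1 in each of the others. Of 32851 promoters of the same length, 29.8% hold the GATA motif, 46.5% the ETS motif, 49.6% CAGAC and 0.213% the SMAD palindrome GTCTAGAC, of which the 4 windows have 0. No printed GATA match overlaps a printed CAGAC match, and a match is a description of the sequence only.

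Smad4, the targeted gene, read about the same on both arrays, as its 3 probe sets had 894, 548 and 288 in Smad4 −/− platelets and 949, 600 and 313 in Smad4 f/f platelets. Their place relative to the deleted part of the gene was not analysed here, so they do not check the genotype. The platelet label was checked against 14 platelet markers, of which 13 were measured, meaning that at least 1 array reached the signal floor of 145 (log2 7.18). Pf4, the platelet chemokine, read 167889 in Smad4 −/− and 162822 in Smad4 f/f platelets, and Ppbp, its neighbour in the granule cargo, read 162745 in Smad4 −/− and 150795 in Smad4 f/f platelets. Over all 11089 measured genes the median log2 ratio, Smad4 −/− over Smad4 f/f, was −0.02.

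All measured genes of the receptor and its ligand were strongly and nearly equally represented on both arrays, and none reached a 2-fold difference. Of the 4 measured genes, 0 lay past 2-fold, against 7.00% of all measured genes, 3.42% higher and 3.58% lower in Smad4 −/−. At that background a count of 0 among 4 genes is not a result about the complex. Their log2 ratios ran from −0.05 to 0.26 with a median of 0.18. The ratio of Vwf, the largest of the 4, was exceeded in size by 59.1% of all measured genes.

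Among the subunits, Gp1bb, which encodes GPIb beta, read 106502 in Smad4 −/− platelets and 110227 in Smad4 f/f platelets by its stronger probe set. This is a log2 ratio of −0.05, the only one of the 4 genes below 0, and it was 0.04 when both arrays were centred on their medians. Its second probe set read 2019 in Smad4 −/− and 1944 in Smad4 f/f, a log2 ratio of 0.05. The 2 probe sets of Gp1bb thus lay on either side of 0, 0.10 apart, and showed no shared direction. The probe set that the annotation gives to both Septin5 and Gp1bb read 246 in Smad4 −/− and 325 in Smad4 f/f, 1.32-fold lower in Smad4 −/−. Septin5, which encodes a septin of the cytoskeleton, overlaps Gp1bb in the RefSeq gene table, and signal of this probe set cannot be assigned to either gene.

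Gp9, which encodes GPIX, read 130503 in Smad4 −/− platelets and 115011 in Smad4 f/f platelets, 1.13-fold higher in Smad4 −/− (log2 ratio 0.18). Gp5, which encodes GPV, read 28851 in Smad4 −/− and 25645 in Smad4 f/f, 1.12-fold higher (log2 ratio 0.17). The ratios of these 2 subunits differed from each other by 0.01. Against Gp1bb they were larger by 0.23 for Gp9 and 0.22 for Gp5.

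Vwf, which encodes the ligand, read 106118 in Smad4 −/− platelets and 88895 in Smad4 f/f platelets, 1.19-fold higher in Smad4 −/− (log2 ratio 0.26). It had the highest ratio of the 4 genes, 0.07 above Gp9 and 0.31 above Gp1bb. Each of Gp9, Gp5 and Vwf rests on 1 probe set, so no second probe set of theirs can be set beside these values. Because probes respond differently to the same amount of RNA, ratios were taken between arrays, and an order of signals between genes does not rank their RNA.

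**Figure D1:**
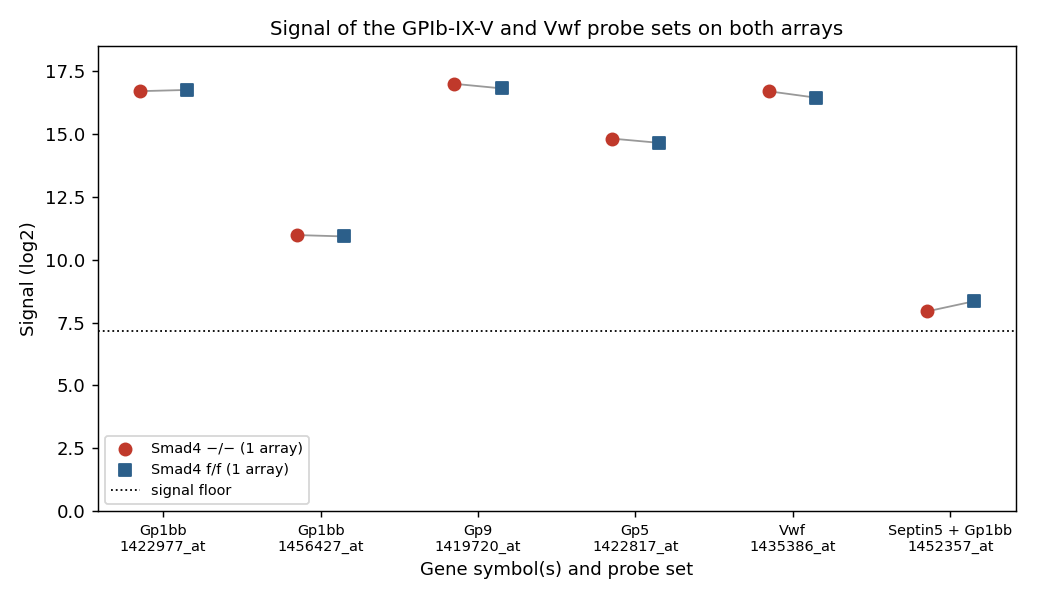
Log2 signal of each probe set of Gp1bb, Gp9, Gp5 and Vwf and of the probe set shared by Septin5 and Gp1bb, with 1 point for the Smad4 −/− array (circle) and 1 for the Smad4 f/f array (square), and a dotted line at the floor of 7.18. The points of a pair nearly coincide for the 5 single-gene probe sets, and the shared probe set shows the widest gap, a log2 ratio of −0.41.

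The size of these differences can be set beside what probe sets of one gene show. Log2 ratios of probe sets of the same gene had a pooled SD of 0.48 over 4252 genes, and of 0.31 over 1427 genes when only probe sets with a mean log2 signal of 9 or more were taken. The whole range of the 4 genes was 0.31, but a range over 4 values and an SD are unlike measures. That SD also includes dimmer probe sets than theirs and holds no spread between animals or arrays. The strongest probe sets of the 4 genes lay near the top of the signal scale, with only 75 probe sets brighter than that of Gp9 in Smad4 −/− and 102 in Smad4 f/f. For Gp5, the dimmest of these, 621 were brighter in Smad4 −/− and 661 in Smad4 f/f, of 45037 in all. Ratios were narrow in this range. Of 918 probe sets with a mean log2 signal of 14 or more, 2.72% lay past 2-fold, and the middle 90% had log2 ratios from −0.53 to 0.50. Among those probe sets, 81.2% had a lower ratio than Vwf, 72.8% a lower one than Gp9, 71.2% a lower one than Gp5 and 38.0% a lower one than Gp1bb. The values do not show whether such bright probes were saturated, which would narrow their ratios.

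**Figure D2:**
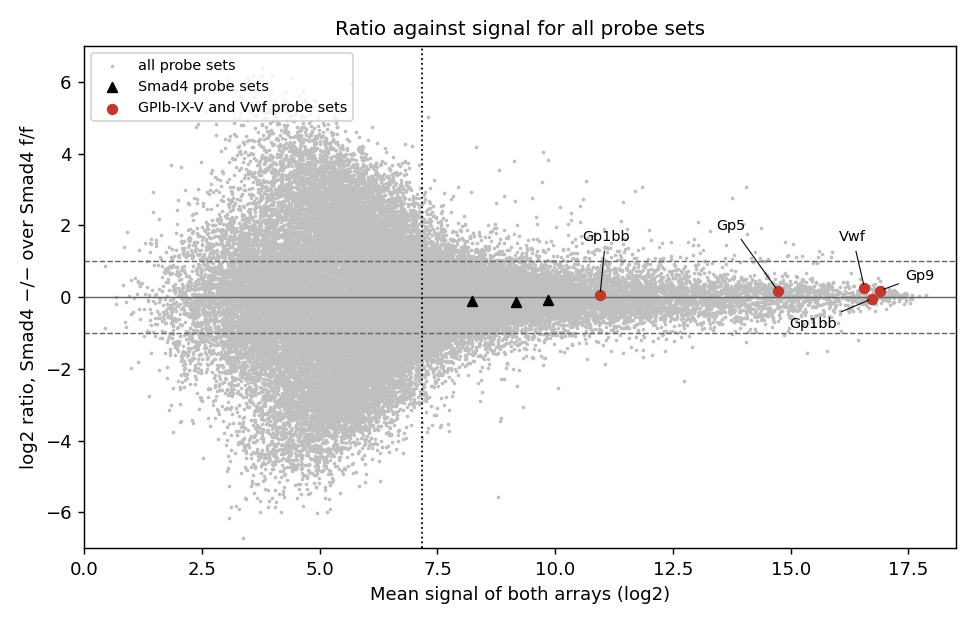
Log2 ratio of Smad4 −/− over Smad4 f/f, without a floor, against the mean log2 signal for all 45037 probe sets that are not controls (grey), with the probe sets of Gp1bb, Gp9, Gp5 and Vwf in red and those of Smad4 as black triangles; dashed lines mark 2-fold and the dotted line the floor. The strongest member probe sets sit at the bright end, within a band in which 2.72% of 918 probe sets pass 2-fold.

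For each gene, the genes with the nearest log2 ratio were looked up among 91 measured platelet markers and pathway genes. With 2 arrays a pattern is a single ratio, so likeness here is only its absolute difference. Nearest to Vwf were Adam10, a membrane metalloprotease (0.26), and Gp6, the collagen receptor (0.25). Nearest to Gp9 were St3gal1, a sialyltransferase (0.19), and Lmo2, an adaptor of the GATA complex (0.17). Lmo2 was also nearest to Gp5, followed by Ywhah, a 14-3-3 protein gene (0.15). Nearest to Gp1bb were the transcription factor genes Gata2 (−0.05) and Etv6 (−0.05). With averaged probe sets Gata2 had 0.25 and Adam10 −0.12, so their places as neighbours depend on the probe set taken.

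Among signalling partners of the receptor, 0 of 23 measured genes (28 listed) were higher past 2-fold and 1 was lower in Smad4 −/−, beside 3.42% and 3.58% of all measured genes, and the list median was 0.06 against −0.02 for all genes. The gene past 2-fold was Ywhag, a 14-3-3 protein gene, which read 757 in Smad4 −/− and 1631 in Smad4 f/f, 2.15-fold lower, with log2 ratios between −1.11 and −0.53 across 3 probe sets. Their mean, −0.78, is short of 2-fold. Flna, the actin cross-linker filamin A that binds the cytoplasmic tail of GPIb alpha, read 16468 in Smad4 −/− and 13381 in Smad4 f/f (log2 ratio 0.30). Ywhaz, the 14-3-3 zeta gene whose protein also binds the complex, read 171628 in Smad4 −/− and 167343 in Smad4 f/f (0.04). Flna and Ywhaz were chosen after their values were seen.

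Other ligands of the receptor and plasma partners of von Willebrand factor had 0 of 8 measured genes (14 listed) past 2-fold. This stands beside 7.00% of all measured genes, and the list median was −0.01. Itga2b, which encodes the alpha subunit of the fibrinogen receptor and is also a platelet marker, read 121861 in Smad4 −/− and 102808 in Smad4 f/f (log2 ratio 0.25). Mmrn1, the granule protein multimerin 1, read 84451 in Smad4 −/− and 79619 in Smad4 f/f (0.09). Adamts13, the protease that trims von Willebrand factor multimers, was not analysed here. Among enzymes that shed platelet receptors and their regulators, 0 of 5 measured genes (7 listed) passed 2-fold, beside the same 7.00%. The list median was −0.11. Adam10 read 41305 in Smad4 −/− and 34479 in Smad4 f/f, with probe sets from −0.53 to 0.26, and the calpain gene Capn2 read 8733 in Smad4 −/− and 11080 in Smad4 f/f (log2 ratio −0.34).

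Sialic acid and O-glycans cover GPIb alpha and von Willebrand factor, and loss of sialic acid marks platelets for clearance. Of 16 measured genes (18 listed) of sialylation and O-glycan synthesis, 0 passed 2-fold, beside 7.00% of all measured genes, with a median of 0.17. C1galt1, which builds the core of O-glycans, read 12470 in Smad4 −/− and 7700 in Smad4 f/f (log2 ratio 0.70), but its 3 measured probe sets ran from −0.50 to 0.70 with a mean of 0.03. Cmas, which activates sialic acid, read 31008 in Smad4 −/− and 28020 in Smad4 f/f (0.15). Of 12 measured genes (14 listed) of von Willebrand factor processing, granule storage and release, 0 passed 2-fold, beside the same 7.00%. Of these 12 genes, 9 had a ratio below 0. The list median was −0.11, against −0.02 for all measured genes. Under median centring the list median was 0.004 and that of all measured genes 0.06. The SNARE genes Snap23 and Stx11 had log2 ratios of 0.03 and −0.19, with 100833 and 88373 in Smad4 −/− and 98675 and 100750 in Smad4 f/f. With averaged probe sets Snap23 had −0.09 and Stx11 −0.09, so their difference depends on the probe set taken.

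Transcription factors that act on the promoters of the receptor genes and Vwf went both ways. Past 2-fold, 0 of 18 listed genes, all measured, were higher and 2 were lower in Smad4 −/−, beside 3.42% and 3.58% of all measured genes. The list median was −0.05, and it ran from −0.05 to 0.07 across the processing settings. Srf, which encodes serum response factor, read 221 in Smad4 −/− and 632 in Smad4 f/f, 2.86-fold lower, but its 2 probe sets ran from −1.52 to 0.62 and their mean, −0.45, is short of 2-fold. Ldb1, a scaffold of the GATA complex, was below the floor in Smad4 −/− and read 348 in Smad4 f/f, at least 2.39-fold lower, but with the floor at the 75th percentile its log2 ratio was −0.42, short of 2-fold. Fli1, an ETS factor, read 10455 in Smad4 −/− and 20079 in Smad4 f/f (log2 ratio −0.94), and its other measured probe set gave −0.61. Gata1, the GATA factor of the lineage, read 6107 in Smad4 −/− and 4853 in Smad4 f/f (log2 ratio 0.33). Fli1 and Gata1 were named after their values were seen, and neither passed 2-fold.

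**Figure D3:**
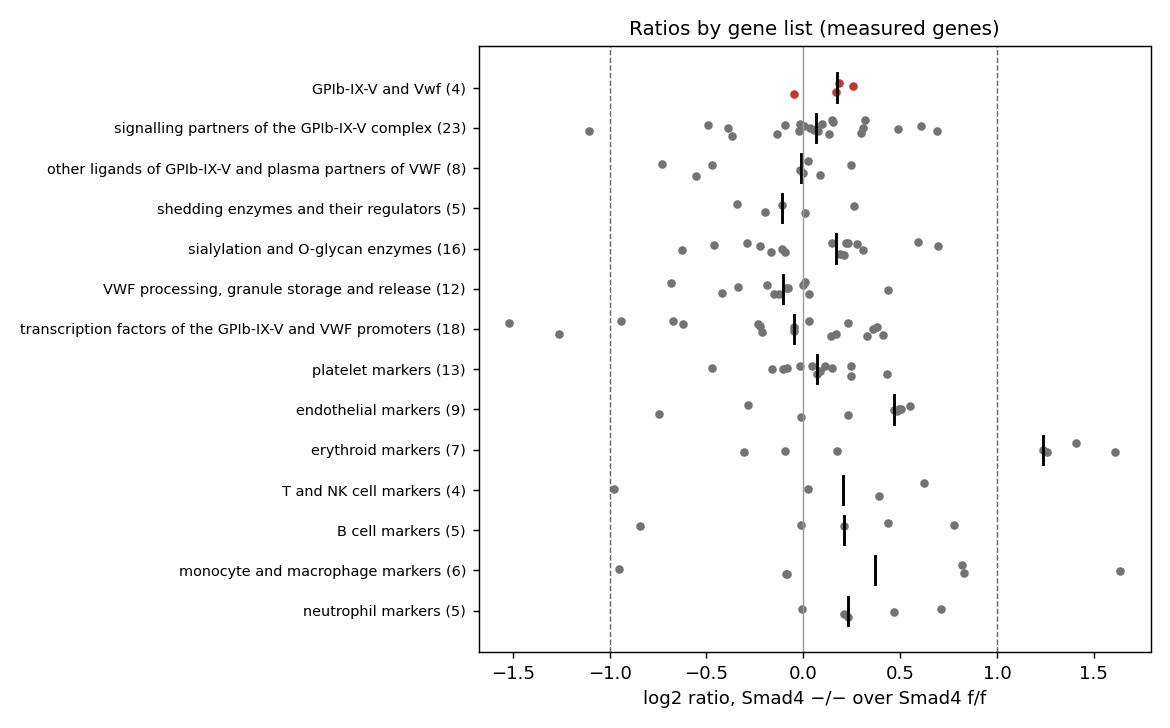
Log2 ratio of Smad4 −/− over Smad4 f/f for each measured gene (points) of the receptor and Vwf, the 6 pathway lists and the 7 lists of cell type markers, with the number of genes in brackets, a black bar at each median and dashed lines at 2-fold. The 4 genes of the receptor and its ligand lie between −0.05 and 0.26, inside the range of the platelet markers (−0.47 to 0.43), and 4 erythroid markers lie beyond 2-fold.

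Platelet markers and markers of other cells can be set beside these values. In bulk RNA fewer cells of a type and less RNA per cell cannot be told apart. Of the 13 measured platelet markers 0 passed 2-fold, beside 7.00% of all measured genes. Their median was 0.07, and their summed signal was 1401415 in Smad4 −/− and 1367907 in Smad4 f/f. The brightest were the receptor gene Clec1b (log2 ratio −0.08) and the regulator Rgs18 (−0.16). Endothelial cells also make Vwf. Of 13 endothelial markers 9 were measured, 0 past 2-fold beside the same 7.00%, with 6 ratios above 0 and 3 below. Their median was 0.47, but 0.16 under a 50th-percentile floor and 0.28 under a 75th-percentile one, with a summed signal of 6245 in Smad4 −/− and 4680 in Smad4 f/f. Plvap read 3049 in Smad4 −/− and 2150 in Smad4 f/f and Kdr 1733 in Smad4 −/− and 1237 in Smad4 f/f. Robo4 (log2 ratio −0.74) and Eng (−0.29), chosen after their values were seen, were lower in Smad4 −/− by the probe set taken. Robo4 read 153 in Smad4 −/−, near the floor, and 256.5 in Smad4 f/f. The 2 probe sets of Eng ran from −0.29 to 0.46 with a mean of 0.08, so Eng showed no shared direction. Tek, Tie1, Emcn and Sox18 were below the floor on both arrays by the probe set taken. The part of endothelial RNA in the ratio of Vwf was not tested.

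Among 13 red cell markers 7 were measured, and 4 of the 7 lay past 2-fold on the higher side in Smad4 −/−, beside 3.42% of all measured genes. The list median was 1.24, with a summed signal of 26694 in Smad4 −/− and 10081 in Smad4 f/f. Fech, Bpgm, Alas2 and Slc4a1 had log2 ratios of 1.61, 1.41, 1.26 and 1.24. Of 7 monocyte and macrophage markers 6 were measured, of which 1 was at least 2-fold higher, beside the same 3.42% of all measured genes. This was Csf1r (log2 ratio 1.64, but 0.28 as the mean of probe sets that ran from −0.48 to 1.64, and 0.99 with the floor at the 75th percentile). The list median was 0.37, but 0.10 with averaged probe sets, and 3 ratios were above 0 and 3 below. The lowest was that of Mpeg1 (−0.95), below the floor in Smad4 −/− and named after its values were seen. The summed signals of the list, 134991 in Smad4 −/− and 142021 in Smad4 f/f, were nearly all Lyz2, the lysozyme gene. Lyz2 read 131259 in Smad4 −/− and 139723 in Smad4 f/f and was named after its values were seen. T and NK cell, B cell and neutrophil markers had 0 genes past 2-fold, beside 7.00% of all measured genes. Their medians were 0.21 over 4 measured of 10, 0.21 over 5 of 7 and 0.23 over 5 of 9. These ran under the alternatives from 0.06 to 0.30, 0.13 to 0.32 and 0.23 to 0.47. Their brightest members were Nkg7 (log2 ratio 0.02) and Gzma (0.62), Ms4a1 (−0.01) and Cd79b (0.21), and S100a8 (0.23) and S100a9 (0.47). In the same order of lists, ratios above and below 0 numbered 3 and 1, 3 and 2, and 4 and 1. The lowest ratios were those of Cd3d (−0.98), Blk (−0.84) and Mmp9 (−0.01), named after their values were seen. The summed signals of these lists were 2618, 4289 and 7576 in Smad4 −/− and 2370, 4069 and 5920 in Smad4 f/f. As a measure of RNA integrity, the ratio of 3′ to 5′ control signal was 2.61 in Smad4 −/− and 1.86 in Smad4 f/f for Gapdh and 1.27 in Smad4 −/− and 1.16 in Smad4 f/f for beta-actin. The part of RNA quality and of other cells in the ratios of the receptor genes was not tested.

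Floors and the omission of _s_at and _x_at probe sets could not move the 4 genes, which lie far above each floor and rest on no such set. Averaging could move only Gp1bb, which alone has a second probe set. Scaling moved all 4 by little. Under 8 alternatives of scaling, floor and choice of probe set, Vwf stayed between 0.23 and 0.35, Gp9 between 0.15 and 0.27, and Gp5 between 0.12 and 0.26. Gp1bb ran from −0.08 to 0.04 and so had no fixed sign. Vwf was above Gp9 and Gp1bb lowest of the 4 under each of these settings, but only scaling and averaging could change that order. Centring on medians moved the split of all genes past 2-fold to 479 higher and 315 lower in Smad4 −/−, while as reported it was 379 and 397.

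**Figure D4:**
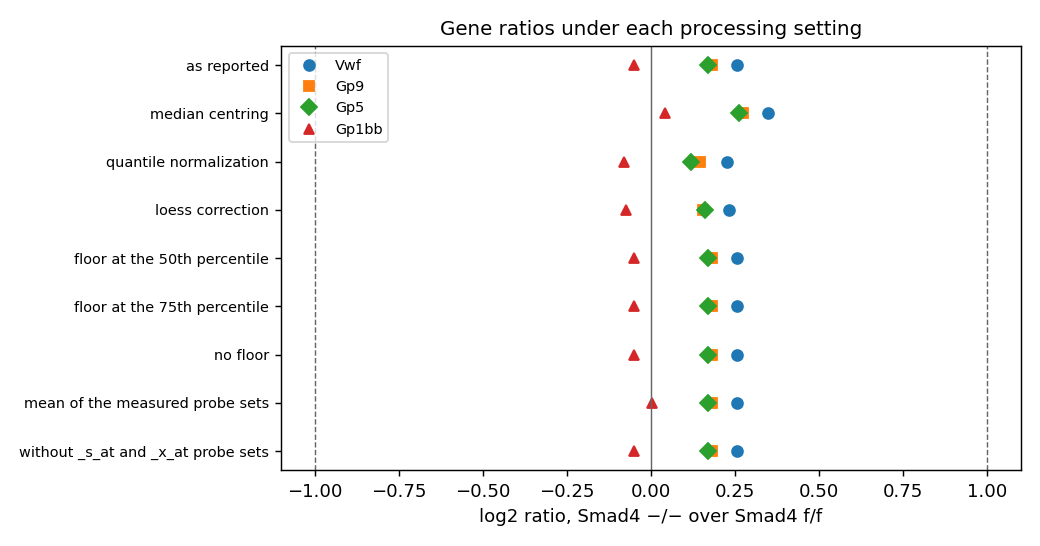
Log2 ratio of Smad4 −/− over Smad4 f/f for Vwf (circles), Gp9 (squares), Gp5 (diamonds) and Gp1bb (triangles) as reported and under each of 8 alternatives; dashed lines mark 2-fold. Vwf, Gp9 and Gp5 stay above 0 and short of 2-fold in each row, while Gp1bb lies on either side of 0, between −0.08 and 0.04. Only the scaling rows could move Vwf, Gp9 and Gp5.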

How the data were processed

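Platelet RNA was amplified with a 3′ in vitro transcription kit, labelled with biotin and hybridised to Affymetrix mouse whole-genome arrays, per the labels' protocols. The authors deposited a log2 signal for each probe set on each array. The tool named per the submitters' processing notes is MAS5, without a version. Both arrays share a linear mean of 500.01 once 2% is trimmed from either end. No detection calls were used.

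Of 45101 probe sets, 64 controls were left out, 34945 have 1 gene symbol in the platform annotation, which can be old, 932 several and 9160 none. Symbols were checked through Entrez IDs (34741 matched, 0 changed). Each gene was represented by its brightest probe set (by mean log2 signal). Signals below the larger of the arrays' 60th percentiles were set to that floor, and a gene was measured if its chosen probe set reached it on at least 1 array. Ratios are Smad4 −/− over Smad4 f/f. No test was run, since there is 1 array for each genotype, and 2-fold is a rule of size. The named genes of each list are up to 4 past 2-fold or, with none, the 2 brightest. The genes studied and the lists were chosen with earlier results of these data known. The steps were tested on simulated data. Python 3.11.15, pandas 2.3.3 and statsmodels 0.14.6 (loess with a span of 0.3) were used.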

Additional observations from a re-analysis of the deposited data

How the results depend on the processing

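The count of genes of the receptor and its ligand past 2-fold was 0 under each of the 10 alternatives, namely scaling by median, quantile or loess, no floor or one at the 50th or the 75th percentile, averaged probe sets, no _s_at or _x_at probe sets, and thresholds of 1.5-fold and 3-fold. The floors, the omission of probe sets and the 3-fold threshold could not change that count. Of all measured genes, 25.1% passed 1.5-fold and 0.929% passed 3-fold. The median log2 ratio of the genes of the receptor and its ligand lay between 0.13 and 0.27, and only the scaling settings moved it. Values that moved by less than the SD between probe sets of a gene, 0.48, were treated as unmoved, since there are no replicates. Gp1bb was above 0 under median centring (0.04) and with the mean of its probe sets (0.003) and below 0 otherwise. Of 130 list counts, 24 differed by over 1.5 times, 13 of them at other thresholds. Ldb1 (−0.42) and Csf1r (0.99) fell short of 2-fold with the higher floor, and Srf (−0.45), Csf1r (0.28) and Ywhag (−0.78) with averaged probe sets. Of the list medians, 4 of 104 changed sign, in the lists of other ligands, of von Willebrand factor processing and release, and of transcription factors. The share of all genes past 2-fold was 10.9% with the lower floor, 4.40% with the higher one and 21.9% with none (671 higher and 762 lower, 175 and 140, and 1130 and 1301 in Smad4 −/−). No paired analysis was possible because each genotype has 1 array.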
